A study of Arabidopsis with 14 samples.

Results

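Touch-induced genes are Arabidopsis genes whose transcripts accumulate soon after a plant is touched, bent, sprayed or handled. The 6 genes described here are TCH2 (also CML24, AT5G37770), TCH3 (AT2G41100), TCH4 (AT5G57560), BT2 (AT3G48360), DIC2 (AT4G24570) and AT1G07135, out of 37980 genes listed for each library. They were chosen by name because they differed between 2 sets of untreated wild-type (WT) seedlings, so every comparison that uses untreated WT is given as a description without a test. The remaining comparisons, among NaCl-treated libraries and within and between the lines, use no untreated WT library. The genes and the lists were nevertheless chosen with earlier results of these data known, so their tests are not independent of that choice.

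The series holds 14 mRNA-Seq libraries from whole 10-day-old seedlings, 2 in each of 7 groups, all in the Col-0 background and grown in days of 8 h of light. The groups were AtC3H26 OX with 150 mM NaCl, untreated AtC3H26 OX, AtC3H3 OX with 150 mM NaCl, untreated AtC3H3 OX, WT with 150 mM NaCl, and untreated WT, of which the labels name a set 2 and a set 1. The study asked which transcripts change when AtC3H3, a CCCH zinc-finger protein with RNase activity, is overexpressed under salt stress. Sample labels do not say which untreated WT set was grown beside which line. For NaCl treatment, RNA of WT and AtC3H3 OX seedlings harvested after 1, 2 and 4 h was combined into 1 library. The labels' protocol placed seedlings on filter paper wetted with the salt solution and lists a harvest at 0 h, but the hour of harvest and the handling of untreated seedlings are not given in the sources used here. Salt, transfer and time after transfer therefore cannot be told apart in any NaCl comparison. The AtC3H3 OX construct carried a hemagglutinin tag at the N terminus of the protein behind a modified CaMV 35S promoter, a promoter active in most tissues. How many independent lines were sequenced and how AtC3H26 OX was made are not given in the sources used here.

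Plants sense touch through stretch-activated channels at the cell membrane, and a brief rise of cytosolic calcium follows. Calmodulin-like proteins such as TCH2 and TCH3 bind that calcium, while TCH4 is a xyloglucan endotransglucosylase/hydrolase that cuts and rejoins cell wall polysaccharides. Transcripts of TCH genes are also known to respond to darkness, temperature and hormones, so they report several stimuli besides touch.

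Expression was read as FPKM, a fragment count scaled by transcript length and library size, which is a level per length and so can be compared between genes. Relative sequencing depth, estimated from the smallest FPKM steps, was 0.638 to 1.07 of that of the second WT NaCl library, and 24089 to 24570 genes were above 0 in each library. Across 21083 genes, replicates correlated with r of 0.977 to 0.982. The methods state that replicates were biological, with nothing further on separate plates or days, and p-values measure the spread between these pairs. AtC3H3 was at 14.8 and 13.5 FPKM in NaCl libraries labelled AtC3H3 OX, against 20.7 and 23.0 FPKM in WT NaCl libraries. AtC3H26 was at 5.11 and 4.39 FPKM in NaCl libraries labelled AtC3H26 OX, against 7.97 and 7.50 FPKM in WT NaCl libraries. Without treatment AtC3H3 was at 4.20 and 4.86 FPKM in libraries labelled AtC3H3 OX, against 5.37 to 6.46 FPKM in the 4 WT libraries. Untreated libraries labelled AtC3H26 OX held 2.51 and 2.34 FPKM of AtC3H26, against 2.57 to 3.53 FPKM in the 4 WT libraries. The transcript named in each label was thus lower, not higher, in those libraries, and groups are called by their labels. The paper selected its AtC3H3 OX lines as overexpressors by quantitative and semi-quantitative RT-PCR. Why the levels read here were lower was not tested. Shoot markers (RBCS1A, CAB1, CAB2, RCA and CA1) summed to 22300 to 28900 FPKM and 8 root markers to 1380 to 1910 FPKM, as whole seedlings would give. No marker was at 0 in both libraries of a group. The root marker NRT2.1 was nevertheless near the floor, at 0 to 0.227 FPKM over the libraries. In such bulk RNA, fewer cells of a type and less RNA per cell cannot be told apart.

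TCH3, whose protein carries several calcium-binding EF hands, was among the most abundant of the 6 transcripts. With NaCl it was at 148 and 147 FPKM in libraries labelled AtC3H26 OX, 191 and 183 FPKM in those labelled AtC3H3 OX, and 167 and 172 FPKM in WT. Without treatment TCH3 was at 45.5 and 45.6 FPKM in libraries labelled AtC3H26 OX, 120 and 117 FPKM in those labelled AtC3H3 OX, 13.6 and 12.2 FPKM in set 2 of WT, and 130 and 142 FPKM in set 1 of WT. All 6 NaCl libraries lay above all 8 untreated ones, and no 2 groups overlapped. TCH2, the smaller calmodulin-like protein CML24, was at 22.8 and 21.5 FPKM with NaCl in libraries labelled AtC3H26 OX, 26.7 and 27.0 FPKM in those labelled AtC3H3 OX, and 21.6 FPKM in both WT libraries. Untreated TCH2 levels were 26.6 and 29.8 FPKM in libraries labelled AtC3H26 OX, 56.3 and 58.4 FPKM in those labelled AtC3H3 OX, 17.3 and 13.5 FPKM in set 2 of WT, and 54.2 and 50.6 FPKM in set 1 of WT. For TCH2, untreated AtC3H26 OX overlapped AtC3H3 OX with NaCl, and AtC3H26 OX with NaCl overlapped WT with NaCl, while the other neighbouring groups were apart. TCH2 spanned the narrowest range of the 6 genes over the untreated libraries, 4.33-fold.

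TCH4 (XTH22), the cell wall enzyme, had its highest levels in the untreated groups AtC3H3 OX and WT set 1. Its NaCl levels were 14.1 and 12.8 FPKM in libraries labelled AtC3H26 OX, 20.1 and 21.0 FPKM in those labelled AtC3H3 OX, and 18.0 and 17.5 FPKM in WT. Untreated libraries held 19.6 and 18.3 FPKM of TCH4 where labelled AtC3H26 OX, 74.1 and 74.3 FPKM where labelled AtC3H3 OX, 4.67 and 4.81 FPKM in set 2 of WT, and 73.9 and 74.6 FPKM in set 1 of WT. Untreated libraries labelled AtC3H3 OX and WT set 1 overlapped, and WT set 2 was the lowest group.

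BT2, a BTB and TAZ domain protein that binds calmodulin and serves in ubiquitin ligases with cullin 3, followed the order of TCH3 in its untreated groups. BT2 was at 105 and 107 FPKM in NaCl libraries labelled AtC3H26 OX, 138 and 136 FPKM in those labelled AtC3H3 OX, and 145 FPKM in both WT libraries. Without NaCl it was at 17.0 and 16.6 FPKM in libraries labelled AtC3H26 OX, 98.5 and 101 FPKM in those labelled AtC3H3 OX, 6.80 and 8.26 FPKM in set 2 of WT, and 118 and 116 FPKM in set 1 of WT. The NaCl libraries labelled AtC3H26 OX lay below the untreated WT set 1 libraries, so BT2 did not separate by salt alone.

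DIC2, a carrier that exchanges dicarboxylates across the inner mitochondrial membrane, was at 7.45 and 8.42 FPKM with NaCl in libraries labelled AtC3H26 OX, 10.5 and 10.4 FPKM in those labelled AtC3H3 OX, and 9.28 and 10.4 FPKM in WT. Untreated DIC2 was at 4.41 and 4.6 FPKM in libraries labelled AtC3H26 OX, 46.3 and 43.7 FPKM in those labelled AtC3H3 OX, 2.19 and 3.03 FPKM in set 2 of WT, and 35.1 and 36.5 FPKM in set 1 of WT. AtC3H3 OX and WT set 1 were thus high, and WT set 2 was low. AT1G07135, a protein-coding gene without a name in the files, was at 15.6 and 15.1 FPKM with NaCl in libraries labelled AtC3H26 OX, 18.0 and 18.1 FPKM in those labelled AtC3H3 OX, and 14.5 and 16.0 FPKM in WT. Untreated AT1G07135 was at 6.22 and 5.95 FPKM in libraries labelled AtC3H26 OX, 45.3 and 43.5 FPKM in those labelled AtC3H3 OX, 2.78 and 3.26 FPKM in set 2 of WT, and 46.1 and 47.4 FPKM in set 1 of WT. For DIC2 and AT1G07135 the NaCl groups lay between the low untreated groups (WT set 2 and AtC3H26 OX) and the high ones (AtC3H3 OX and WT set 1).

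**Figure D1:**
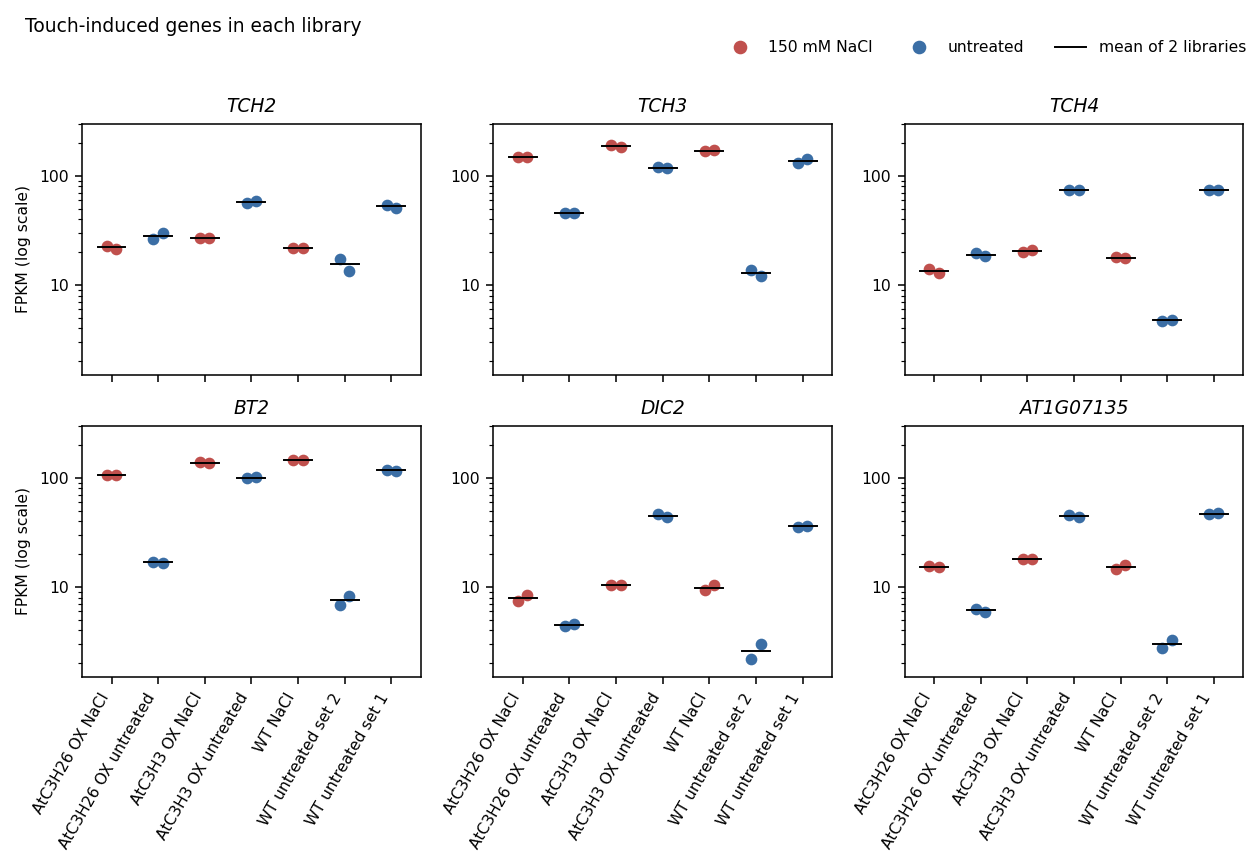
FPKM of the 6 touch-induced genes (log axis) in each of the 14 libraries, by group; points are libraries, red with 150 mM NaCl and blue untreated, and lines are means of 2 libraries. Over the untreated libraries the highest level was 4.33-fold (TCH2) to 21.2-fold (DIC2) the lowest, against 1.25-fold to 1.64-fold over the NaCl libraries. The untreated libraries include the WT libraries that chose the genes.

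Spread was therefore far larger without salt than with it. Over the 6 NaCl libraries the ratio of highest to lowest FPKM was 1.25 for AT1G07135, 1.26 for TCH2, 1.30 for TCH3, 1.38 for BT2, 1.41 for DIC2 and 1.64 for TCH4, and its median over 17478 genes was 1.26. Over the 8 untreated libraries the ratio was 4.33 for TCH2, 11.6 for TCH3, 16.0 for TCH4, 17.1 for AT1G07135, 17.3 for BT2 and 21.2 for DIC2, where the same median was 1.36. The untreated libraries include those that chose the genes. Among the 4 untreated libraries labelled with either line, which did not, the ratio ran from 2.20 for TCH2 to 10.5 for DIC2, with a median over all those genes of 1.19. Among the 4 NaCl libraries labelled with either line it ran from 1.20 for AT1G07135 to 1.64 for TCH4, with a median of 1.20.

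As a description of the values that chose the genes, mean FPKM in WT set 2 was lower than in WT set 1 by 3.41-fold for TCH2, 10.6-fold for TCH3, 13.7-fold for DIC2, 15.5-fold for BT2 and AT1G07135, and 15.7-fold for TCH4. All 6 were without overlap between the sets. Over 19783 genes, 10.1% differed between the sets at an adjusted p under 0.05, and 7.32% were lower in set 2. More negative differences than that of TCH2 were found for 105 genes, and for each of the other 5 members for 7 to 14 genes. On the log2(FPKM + 1) scale, where changes of low genes are understated, the differences were -1.71 for TCH2, -3.30 for TCH3, -3.71 for TCH4, -3.79 for BT2, -3.36 for DIC2 and -3.57 for AT1G07135.

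The direction of the WT salt difference depended on which set it was measured against. Against WT set 2, WT with NaCl differed by 0.48 for TCH2, 1.71 for TCH4, 1.60 for DIC2 and 2.01 for AT1G07135 on the log2(FPKM + 1) scale. Against WT set 1 the same NaCl libraries differed by -1.24 for TCH2, -2.01 for TCH4, -1.76 for DIC2 and -1.56 for AT1G07135. TCH3 (3.62 against set 2, 0.31 against set 1) and BT2 (4.10 and 0.31) were higher with NaCl against either set, but by different amounts. Over all genes, 54.7% were called against set 2 and 63.4% against set 1. Both comparisons share the WT NaCl libraries, and neither was tested for these genes.

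Untreated libraries labelled AtC3H3 OX lay close to WT set 1, with differences of -0.23 (BT2) to 0.32 (DIC2), and above WT set 2 by 1.84 (TCH2) to 3.71 (TCH4) on the same scale. Those labelled AtC3H26 OX lay between the sets in all 6 genes, below set 1 with differences of -2.75 (AT1G07135) to -0.87 (TCH2) and above set 2 by 0.62 (DIC2) to 1.79 (TCH4). Over all genes, 2.46% were called for AtC3H3 OX against set 1 and 14.3% against set 2, and 12.2% and 9.57% for AtC3H26 OX. These values share the untreated WT libraries and are descriptive for the 6 genes.

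Comparing the untreated lines directly needs no WT library, although the genes were chosen with earlier results of these libraries known. All 6 genes were lower in untreated libraries labelled AtC3H26 OX than in those labelled AtC3H3 OX, and their replicates did not overlap. Across all genes tested, 8.86% were called in either direction and 5.67% as lower, by limma at a Benjamini-Hochberg adjusted p under 0.05. Mean FPKM was lower by 2.03-fold for TCH2 (log2 difference -1.0 ± 0.07 SE, adjusted p = 0.0011) and 2.61-fold for TCH3 (-1.36 ± 0.04, adjusted p = 9e-05). TCH4 was lower by 3.93-fold (-1.92 ± 0.05, adjusted p = 7.4e-05) and BT2 by 5.91-fold (-2.50 ± 0.04, adjusted p = 2e-05). AT1G07135 was lower by 7.29-fold (-2.68 ± 0.06, adjusted p = 4.7e-05) and DIC2 by 10.0-fold (-3.06 ± 0.06, adjusted p = 4.1e-05). Of 19744 genes tested, 11 had a more negative difference than DIC2, 15 than AT1G07135, 18 than BT2, 41 than TCH4, 101 than TCH3 and 204 than TCH2. The count over all genes was 501 without the second untreated library labelled AtC3H3 OX and 519 without the first, against 1750 with both, and all 6 members were called in both cases.

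With NaCl the same lines differed much less in these genes. TCH3, TCH4 and BT2 were lower in libraries labelled AtC3H26 OX, by 1.27-fold (adjusted p = 0.017), 1.53-fold (adjusted p = 0.019) and 1.29-fold (adjusted p = 0.014) by limma, where 5.55% of all genes were called and 3.82% as lower. TCH2 (-0.27 ± 0.06 SE on the log2 scale), DIC2 (-0.36 ± 0.09) and AT1G07135 (-0.22 ± 0.06) missed the threshold with adjusted p of 0.063, 0.078 and 0.10. No member was called once either NaCl library labelled AtC3H3 OX was left out, where only 9 or 11 genes were called in all.

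**Figure D2:**
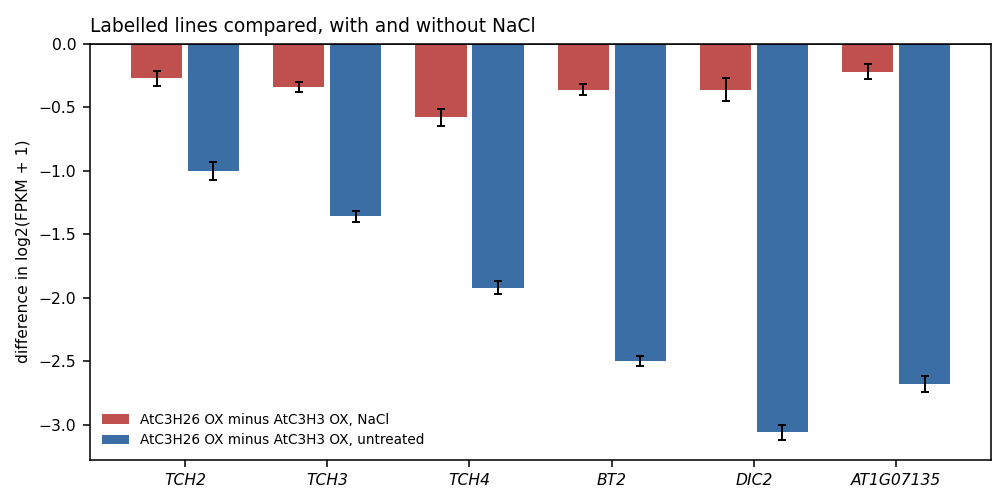
Differences in log2(FPKM + 1) of libraries labelled AtC3H26 OX minus those labelled AtC3H3 OX for the 6 genes, with NaCl (red) and untreated (blue); bars are limma estimates from 2 libraries a group and error bars are standard errors. Untreated differences reach -3.06 for DIC2 and those with NaCl reach -0.58 for TCH4.

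Set against WT with NaCl, libraries labelled AtC3H26 OX had lower BT2 (log2 difference -0.45 ± 0.04 SE, limma adjusted p = 0.0052), TCH3 (-0.20 ± 0.04, adjusted p = 0.038) and TCH4 (-0.38 ± 0.07, adjusted p = 0.038), while 7.09% of all genes were called and 4.54% as lower. TCH2 (0.03 ± 0.06), DIC2 (-0.28 ± 0.10) and AT1G07135 (0.01 ± 0.07) were not called. Leaving out either WT NaCl library left no member called, and 7 or 11 genes in all. Libraries labelled AtC3H3 OX had higher TCH2 than WT with NaCl (0.30 ± 0.05, limma adjusted p = 0.045), the only member called where 2.67% of all genes were and 1.30% as higher. That call held in 2 of 10 alternatives, over which its adjusted p ran between 0.046 and 0.17. The other 5 members differed from WT by -0.08 (BT2) to 0.23 (AT1G07135), with limma adjusted p of 0.11 to 0.69. Both comparisons share the WT NaCl libraries.

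Salt responses were then measured within each line. In libraries labelled AtC3H26 OX, NaCl seedlings had higher BT2, TCH3, AT1G07135 and DIC2 and lower TCH4 and TCH2, and 55.6% of all genes were called, 29.2% as higher and 26.4% as lower. BT2 was 6.31-fold higher (2.59 ± 0.05 SE on the log2 scale, limma adjusted p = 4e-06), TCH3 3.23-fold (1.67 ± 0.04, adjusted p = 7.8e-06), AT1G07135 2.52-fold (1.21 ± 0.07, adjusted p = 0.00011) and DIC2 1.76-fold (0.70 ± 0.10, adjusted p = 0.0023). TCH4 was lower by 1.41-fold (-0.47 ± 0.08, adjusted p = 0.0043) and TCH2 by 1.27-fold (-0.33 ± 0.08, adjusted p = 0.013). The TCH2 call was lost without the second NaCl library (adjusted p = 0.06) or the second untreated library (adjusted p = 0.057).

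In libraries labelled AtC3H3 OX, NaCl seedlings had higher TCH3 and BT2 and lower TCH2, TCH4, DIC2 and AT1G07135, and 61.3% of all genes were called, 31.4% as higher and 29.9% as lower. TCH3 was 1.58-fold higher (0.65 ± 0.03 SE, limma adjusted p = 3e-05) and BT2 1.38-fold (0.46 ± 0.03, adjusted p = 9.2e-05). DIC2 was lower by 4.30-fold (-2.0 ± 0.05, adjusted p = 2.6e-06), TCH4 by 3.62-fold (-1.81 ± 0.04, adjusted p = 1.8e-06), AT1G07135 by 2.46-fold (-1.25 ± 0.05, adjusted p = 9.1e-06) and TCH2 by 2.14-fold (-1.07 ± 0.04, adjusted p = 1.1e-05). With such large shares of all genes called in each line, the calls by themselves do not set these genes apart.

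**Figure D3:**
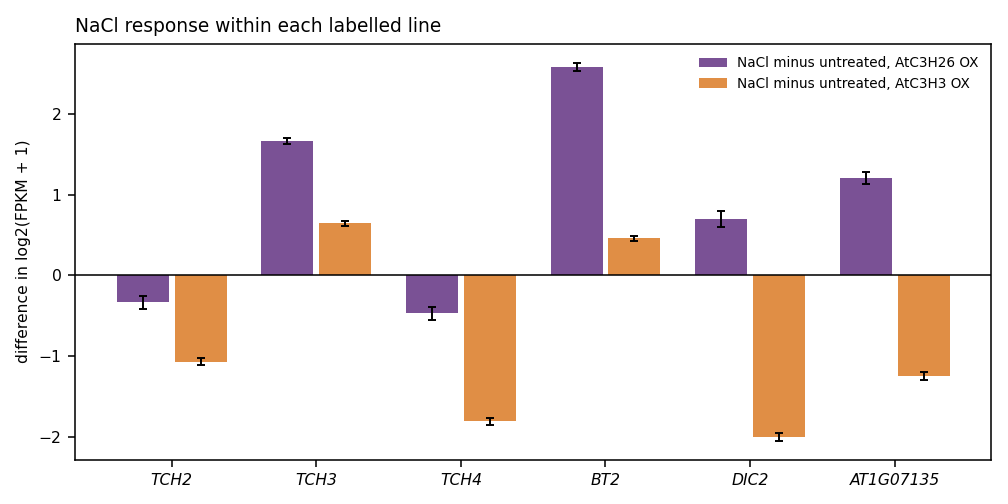
Differences in log2(FPKM + 1) of NaCl minus untreated seedlings for the 6 genes in libraries labelled AtC3H26 OX (purple) and AtC3H3 OX (orange); error bars are standard errors of limma estimates from 2 libraries a group. DIC2 is at 0.70 and AT1G07135 at 1.21 in AtC3H26 OX, against -2.0 and -1.25 in AtC3H3 OX.

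The difference between these responses was tested as an interaction of line and salt. All 6 genes had a more positive response in libraries labelled AtC3H26 OX than in those labelled AtC3H3 OX, where 7.44% of all genes were called and 3.79% in that direction. The difference was largest for DIC2 (2.70 ± 0.10 SE, limma adjusted p = 3.4e-05), AT1G07135 (2.46 ± 0.08, adjusted p = 1.4e-05) and BT2 (2.13 ± 0.05, adjusted p = 5.2e-06). It was 1.34 ± 0.09 for TCH4 (limma adjusted p = 0.00037), 1.02 ± 0.05 for TCH3 (adjusted p = 0.00014) and 0.74 ± 0.09 for TCH2 (adjusted p = 0.0045). DIC2 and AT1G07135 fell with NaCl in AtC3H3 OX libraries and rose in AtC3H26 OX libraries. This interaction equals the difference between lines with NaCl minus that without, so it rests on the same untreated libraries as the comparison of untreated lines. In both, the line and its set of untreated libraries cannot be told apart.

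Genes with related functions were then read from lists, which were also chosen with earlier results known. The early wound and mechanical response list holds transcription factors and other genes known to be induced within a short time of wounding or touch. In untreated libraries labelled AtC3H26 OX, 17 of its 22 tested genes were lower than in those labelled AtC3H3 OX and 1 was higher, with a median log2 difference of -1.36, against 0.00 over all genes. In that comparison 8.86% of all genes were called and 5.67% as lower. WRKY40, a transcription factor of defence and abscisic acid responses, was 10.1-fold lower in mean FPKM (-3.09 ± 0.11, limma adjusted p = 0.00016). The ethylene response factor ERF105 differed by -2.84 and the zinc-finger gene SZF1 by -2.76, and the jasmonate repressor JAZ10 was the gene that was higher, by 0.92. The list's interaction of line and salt had 14 genes higher and 3 lower of 27 tested, where 7.44% of all genes were called and 3.79% as higher, led by ERF105 at 2.78, SZF1 at 2.69 and WRKY40 at 2.63. In NaCl against untreated libraries, 22 of 27 of its genes rose and 2 fell where labelled AtC3H26 OX, and 16 rose and 10 fell where labelled AtC3H3 OX. Over all genes, 55.6% were called in the AtC3H26 OX response and 61.3% in the AtC3H3 OX response.

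Relatives of the members moved to differing degrees in the untreated lines, where 8.86% of all genes were called and 5.67% as lower. Among calmodulins and calmodulin-like genes other than TCH2 and TCH3, 8 of 33 tested were lower in libraries labelled AtC3H26 OX than in those labelled AtC3H3 OX and 0 were higher (1 at an unadjusted limma p under 0.05), with a median of -0.11. CML38 was lowest by -1.94, followed by CML45 at -1.44 and CML16 at -1.04. CAM1, which encodes a calmodulin and is listed in RefSeq also as TCH1, was at 110 and 114 FPKM in untreated libraries labelled AtC3H26 OX, against 128 and 127 FPKM in those labelled AtC3H3 OX. That CAM1 difference was -0.19 ± 0.04 (limma adjusted p = 0.041), and CAM1 ranged between 110 and 166 FPKM over all 14 libraries. Of 25 tested xyloglucan endotransglucosylases other than TCH4, 5 were lower and 2 higher, with XTH19 at -0.73 and XTH17 at 0.45, and the median was 0.01. Of the 4 BT2 relatives, BT1 (-1.49), BT5 (-1.35) and BT4 (-0.35) were lower. Of 4 tested mitochondrial dicarboxylate and uncoupling carriers other than DIC2, UCP5 was lower (-0.55).

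Genes of touch perception and signalling were read next. None of 10 tested genes of the mechanosensing and touch signalling list, which includes MCA1, MCA2, MSL9, MSL10 and MYC2, was called by limma in the untreated lines. Of these, 2 had an unadjusted p under 0.05, and their median was 0.01. The 11 core circadian clock genes were also not called by limma there, 4 having an unadjusted p under 0.05, with a median of 0.02. Over all genes 8.86% were called in this comparison, and having no call in lists this small is near that share. The 5 shoot markers were not called, 1 having an unadjusted p under 0.05, and of 7 tested root markers PYK10 was higher (0.47). Root markers summed to 1910 and 1890 FPKM in untreated libraries labelled AtC3H26 OX, against 1380 and 1400 FPKM in those labelled AtC3H3 OX, and shoot markers to 23400 and 22300 against 23400 and 23400 FPKM. The root sum is mostly PYK10, at 1840 and 1830 FPKM in untreated libraries labelled AtC3H26 OX, against 1320 and 1330 FPKM in those labelled AtC3H3 OX. The other 6 tested root markers were not called, and the median of the 7 was 0.04. CASP1, named after its values were seen, was at 17.1 and 16.9 FPKM in AtC3H26 OX libraries, against 20.4 and 19.8 FPKM in AtC3H3 OX libraries. The part of PYK10-expressing tissue in the member differences was not tested. Of 4 tested dark and sugar starvation genes, DIN10, which encodes a raffinose synthase-like protein, was higher (3.35), and ASN1 (-1.21) and DIN3 (-0.40) were lower. Untreated DIN10 was at 85.9 and 86.9 FPKM in libraries labelled AtC3H26 OX and 7.70 and 7.46 FPKM in those labelled AtC3H3 OX. In untreated WT libraries it was at 29.0 to 171 FPKM. The paper lists DIN10 among genes lower in AtC3H3 OX than in WT under salt. With NaCl, DIN10 was at 16.2 and 14.9 FPKM here in libraries labelled AtC3H3 OX, against 104 and 103 FPKM in WT.

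**Figure D4:**
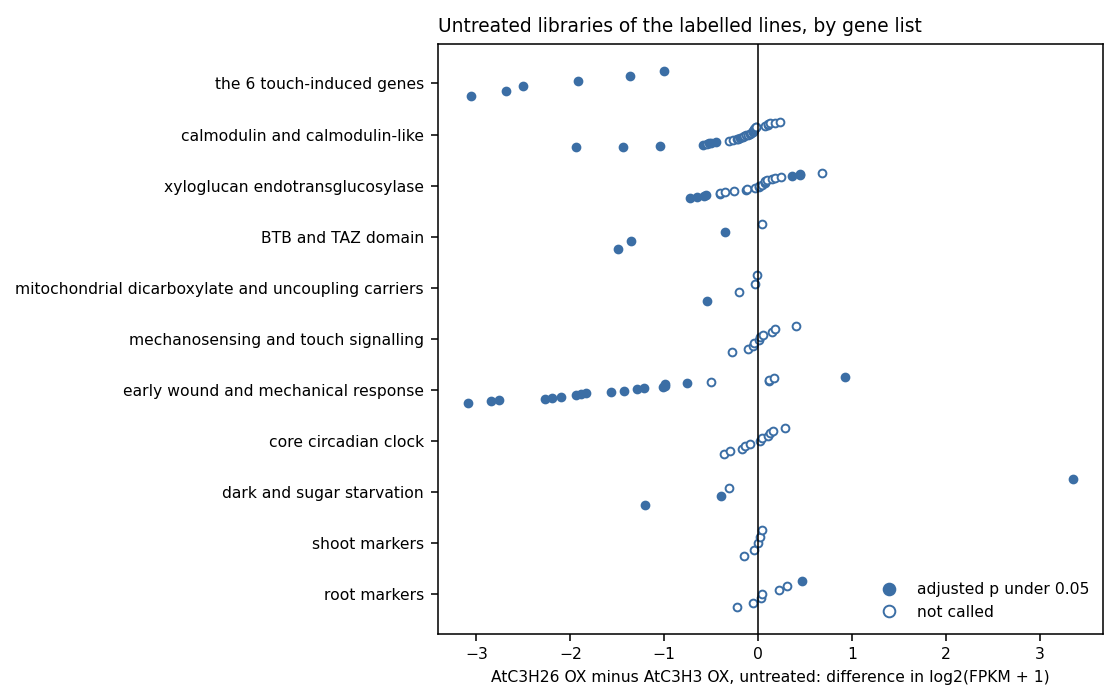
Differences in log2(FPKM + 1) of untreated libraries labelled AtC3H26 OX minus those labelled AtC3H3 OX for each tested gene of each list; filled points passed an adjusted p under 0.05 and open points did not. All 6 touch-induced genes and 17 of 22 early wound genes are called below 0, and no mechanosensing, clock or shoot marker gene is called. Of all genes tested, 8.86% are called in either direction and 5.67% are called below 0.

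The responses of related genes to NaCl are given against the shares of all genes called, which were 29.2% higher and 26.4% lower in libraries labelled AtC3H26 OX, and 31.4% higher and 29.9% lower in those labelled AtC3H3 OX. Xyloglucan endotransglucosylases fell with NaCl in 18 of 26 tested genes in libraries labelled AtC3H26 OX and in 19 of 25 in those labelled AtC3H3 OX, as TCH4 did, and 3 rose in each. BT4 rose by 3.56 and BT1 by 2.44 on the log2 scale in AtC3H26 OX libraries, against 2.97 and 1.38 in AtC3H3 OX libraries. BT5 changed by -0.38 in AtC3H26 OX libraries and by -1.57 in AtC3H3 OX libraries, so it fell in both where BT2 rose. UCP5, also known as the dicarboxylate carrier DIC1, rose by 1.74 in AtC3H26 OX libraries and by 1.47 in AtC3H3 OX libraries. Of 11 tested mechanosensing and touch signalling genes, 6 rose and 3 fell in AtC3H26 OX libraries, and 7 rose and 3 fell in AtC3H3 OX libraries. The transcription factor MYC2 rose by 1.97 in AtC3H26 OX libraries and by 2.06 in AtC3H3 OX libraries, and MCA2, a calcium channel candidate of touch sensing, changed by -1.12 in AtC3H26 OX libraries and by -1.08 in AtC3H3 OX libraries. Calmodulin and calmodulin-like genes rose in 16 of 35 tested and fell in 5 in AtC3H26 OX libraries, and rose in 17 of 35 and fell in 8 in AtC3H3 OX libraries. With 55.6% and 61.3% of all genes called in these lines, nothing particular to calmodulins is read from these counts.

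Genes on either side of the members on the chromosome were read as a check on misassigned fragments. CAM2, next to TCH3 on chromosome 2, was at 30.1 to 61.7 FPKM over the 14 libraries, and AT2G41090, on its other side, at 13.6 to 33.0 FPKM. XTH25, next to TCH4 on chromosome 5, did not exceed 0.277 FPKM, and CEP3, next to BT2 on chromosome 3, was at 9.37 to 25.7 FPKM. SIRANBP, next to AT1G07135, was at 83.9 to 120 FPKM, and REN1, next to DIC2, at 0.69 to 1.45 FPKM. CAM1, next to TCH2 on chromosome 5, was at 110 to 166 FPKM, and AT5G37750, on the other side of TCH2, at 0.301 to 1.63 FPKM. CAM1, CAM2, AT2G41090, CEP3 and SIRANBP did not share the range of the members. XTH25, REN1 and AT5G37750 were too low to be read in this way. AT5G37760 overlaps TCH2 in the RefSeq annotation and did not exceed 0.122 FPKM. AT2G41105 overlaps TCH3 in that annotation and had 0.351 to 20.4 FPKM. Its untreated levels were 1.51 and 1.33 FPKM in libraries labelled AtC3H26 OX and 5.86 and 6.14 FPKM in those labelled AtC3H3 OX. They were 2.12 and 0.351 FPKM in set 2 of WT and 8.91 and 5.20 FPKM in set 1 of WT. With NaCl it was at 10.6 to 20.4 FPKM. The library kit marks strand, but whether the counting used it is not given in the sources used here, so fragments of this overlap cannot be told apart.

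The genes most like the members over the 14 libraries were sought by Pearson r of log2(FPKM + 1), among 15674 genes that reached 5 FPKM in 2 or more libraries. The points share libraries, fall into groups and include the untreated WT libraries that chose the members. A gene that differs in the same way between the WT sets can thus rank high, and r is given as a description. SZF1 followed the mean profile of the 6 genes most closely (r = 0.986), ahead of AT3G57450 (0.984), AT3G59080 (0.978), AT1G32920 (0.978) and ERF5 (0.976). By member, the closest genes were SZF1 for AT1G07135 (0.997), WRKY40 for BT2 (0.995), PYL5 for TCH4 (0.991), AT3G19030 for TCH3 (0.99), CAF1a for DIC2 (0.983) and AT4G32480 for TCH2 (0.979). PYL5 encodes an abscisic acid receptor, and CAF1a a subunit of the mRNA deadenylation complex. SZF1 was at 12.0 and 10.8 FPKM in untreated libraries labelled AtC3H26 OX, against 83.4 and 82.9 FPKM in those labelled AtC3H3 OX, and at 5.97 and 6.82 FPKM in set 2 of WT, against 77.7 and 83.2 FPKM in set 1 of WT.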

How the data were processed

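Whole seedlings were sequenced as paired-end mRNA-Seq libraries. Per the study's methods and the labels, the authors mapped reads with TopHat to TAIR10 and deposited FPKM from Cufflinks, described as quantile normalized; summed FPKM differed between libraries (665439 to 729899), so quantile normalization was also tried. No read counts were used. Names were matched by locus, symbol or synonym to a RefSeq TAIR10.1 table (37191 of 37980 rows), used also for gene order and overlap, with no coordinates printed. No sequence was analysed here.

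Values were analysed as log2(FPKM + 1) in genes reaching 1 FPKM in 2 or more libraries of a comparison, with limma 3.58.1 (trend, R 4.3.3) and Benjamini-Hochberg adjustment over all genes, called at 0.05. All 6 members passed the filter in each comparison. On simulated data, 200 genes were changed by 1 or 2 log2 units. In a comparison of 2 against 2 libraries 100% were recovered at either size, with 3.38% of calls false. In the interaction 99% and 100% were recovered, with 9.55% of calls false. Recovery of changed genes in the deposited FPKM was not tested. Depth was estimated from low FPKM steps. Python 3.11.15 was used for summaries.

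Members and lists were chosen with earlier results of these data known. Named genes were the members, their neighbours, up to 3 genes a direction of each list with the largest called differences, and the genes most alike in profile. Alternatives were pseudocount 0.1, no filter, quantile or median ratio scaling, all 14 libraries in 1 fit, a replicate block and leaving out each replicate.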

Additional observations from a re-analysis of the deposited data

Results flagged for a closer look

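The NaCl response of all 6 genes differed between the lines by the interaction test, and the difference of AtC3H26 OX minus AtC3H3 OX libraries was 0.74 for TCH2, 1.02 for TCH3, 1.34 for TCH4, 2.13 for BT2, 2.70 for DIC2 and 2.46 for AT1G07135 on the log2(FPKM + 1) scale. Leaving out any replicate, another scaling or the replicate block kept each of these 6 calls. The untreated libraries of each line form a single set, so line and untreated set cannot be told apart in this test. In WT the NaCl difference of DIC2 was -1.76 against set 1 and 1.60 against set 2. That of AT1G07135 was -1.56 and 2.01, and the part of such differences between untreated sets in the interaction was not tested.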

How the results depend on the processing

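Of 264 recomputed member values for the salt responses, the untreated lines and the interaction, 262 kept direction and call, 2 lost the call (both TCH2 in the AtC3H26 OX salt response) and 0 reversed. Over all comparisons 419 of 450 were kept, 27 lost the call, 1 gained it and 3 reversed: in AtC3H26 OX against WT with NaCl, AT1G07135 was -0.05 without the first WT library and -0.01 without the first AtC3H26 OX library, where TCH2 was also -0.01 (without the second library of those groups they were 0.08 for AT1G07135, WT left out, and 0.07 for TCH2, AtC3H26 OX left out). For AtC3H3 OX against WT with NaCl, 0 members were called without the filter, with quantile normalization, in 1 fit of all 14 libraries, with the replicate block and without any one replicate (0 to 0), against 1. For AtC3H26 OX against WT with NaCl, 1 member was called without the filter and 0 to 3 without one replicate, and for AtC3H26 OX against AtC3H3 OX with NaCl, 0 to 3 without one replicate, against 3 in each. Deviations of same-numbered replicates correlated weakly over genes (-0.121 to 0.118), and the main fits did not pair them. With a single replicate difference per group, these values cannot exclude shared plates or days. The replicate block gave 2 members in AtC3H26 OX against WT with NaCl. Crossed numbers, chosen after seeing the data, gave 3 in AtC3H26 OX against AtC3H3 OX with NaCl. Over all genes, counts ranged over settings from 56 to 641 (525), 677 to 1999 (1394) and 372 to 2101 (1093) with NaCl, in the order above, and from 1124 to 2182 (1750) for untreated lines; without one replicate these were 116 to 505, 7 to 1838, 9 to 889 and 501 to 2178, and the interaction count 540 to 1230 (1534). Quantile normalization gave 792 higher and 895 lower for untreated lines, against 630 and 1120, and 459 and 599 with NaCl, against 340 and 753. Where one replicate was left out, the lone library was assumed to vary like the other group. Read counts were not used, so no counting interval is given for any level.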
